A study of Homo sapiens with 21 samples.

Results

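The GADD45 family has 3 members in humans, GADD45A, GADD45B and GADD45G, and all of them were taken by gene symbol from the 23368 genes of an RNA-seq table of hTERT-HPNE cells, a pancreatic line that was immortalized with telomerase and is not transformed. The 21 libraries formed 7 groups of 3 biological replicates. One group was untreated and labelled as time 0, and the others were harvested 4, 8 or 24 h after 400 ng/ml neocarzinostatin (NCS), a radiomimetic drug that breaks both DNA strands, or after 300 uM H2O2, which causes oxidative stress. All groups shared the same line, grown with EGF and puromycin. Treated cells were given fresh medium together with the agent, and no untreated group was harvested at 4, 8 or 24 h. Whether the untreated cells also had a change of medium is not stated. In every comparison with untreated cells, the agent, the time in culture and any difference in medium therefore cannot be told apart, and all 6 of these comparisons share the same 3 untreated libraries. Comparisons of H2O2 with NCS were made at matched times.

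The values are rLog values, which lie on a log2 scale, are normalized for library size and pull in differences, above all where a gene has few reads. A difference of 1 is a doubling on this scale. Counts were not available from the table. Sequencing depth is therefore unknown, and no interval or floor based on it is given. Of the 23368 genes, 3674 were listed at 0 in every library and 19694 were tested, the 3 family members included. The values are not divided by gene length, so levels of different genes were not compared with each other, only their changes. A gene was called higher or lower at an adjusted p-value under 0.05 in limma.

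The line was checked against marker genes. The mesenchymal and progenitor genes NES and VIM lay at 11.78 to 12.28 and 16.79 to 17.25, and the keratins KRT8 and KRT18 of simple epithelia at 7.73 to 8.28 and 11.38 to 11.85. The collagen gene COL1A1 lay at 17.51 to 18.06 and ACTA2 at 11.37 to 11.89, so fibroblast-type genes were present in every library. Among further epithelial and ductal genes, the transcription factor gene SOX9 lay at 5.78 to 6.48, the keratin gene KRT19 at 0.58 to 0.73 and EPCAM at -1.77 to -1.74, and the acinar genes CPA1 and AMY2A were below 0 in every library. The acinar gene PRSS1 and the islet gene INS were listed at 0 in every library. The pan-leukocyte gene PTPRC did not exceed 0.98 and CD68, which macrophages but also other cells express, lay at 9.93 to 10.57. Of the endothelial genes, CDH5 did not exceed -2.03 and PECAM1 lay at 2.02 to 2.42. Several markers moved in H2O2 at 4 h, the time at which GADD45A and GADD45B were highest. Of 18 tested against untreated cells 6 rose and 3 fell, where 26.2% of all genes rose and 19.7% fell. Of the rises, those of the islet gene CHGA and of KRT18 did not pass with library medians aligned (adjusted p = 0.535 and 0.0813 from limma). That of ACTA2 did not pass in 4 of the 21 fits that left out a library (adjusted p = 0.0575 to 0.141). The largest differences were in COL1A1 (-0.44, adjusted p = 1.85e-08 from limma), KRT8 (0.39, adjusted p = 1.36e-05), PECAM1 (0.33, adjusted p = 2.08e-07) and COL3A1, a further collagen gene (-0.27, adjusted p = 1.25e-05). Markers also moved at other times. The mean of CD68 was 10.49 in NCS at 24 h, against 9.97 in untreated cells. For SOX9 it was 6.34 in H2O2 at 24 h, against 5.93 in untreated cells. COL1A1 differed by -0.38 in H2O2 at 24 h (adjusted p = 8.32e-08 from limma), but by 0.06 after quantile normalization (adjusted p = 0.529). The part of the markers in the results was not tested.

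The second H2O2 library at 8 h stood apart from its group. Over the 11681 genes with a mean value of at least 5, its root mean square distance from the mean of the other 2 libraries was 0.120, against 0.063 to 0.094 for the 20 other libraries. In this library GADD45A and GADD45B were the lowest of the 3, and so were ATF4 (13.54, against 13.87 and 13.88) and CDKN1A (15.44, against 15.87 and 15.91). The mitotic kinase genes PLK1 (10.84, against 10.20 and 10.33) and AURKA (10.18, against 9.51 and 9.56) were the highest. Results of GADD45A and GADD45B at 8 h are given with and without it. Of the 61 genes in the lists used below, 2 lost and 3 gained a call against untreated cells at 8 h when it was left out, and no called gene changed direction.

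GADD45 proteins are small acidic nuclear and cytoplasmic proteins without known enzymatic activity that act by binding others. They bind the kinase MAP3K4 and so switch on the p38 and JNK cascade, bind CDK1 with cyclin B1 and hinder entry into mitosis, bind the sliding clamp PCNA and the inhibitor CDKN1A (p21), and take part in excision repair and active DNA demethylation. GADD45A is a damage-induced gene that can be switched on through ATF4 and FOXO factors, GADD45B is an early response gene of TGF-beta and NF-kB signalling, and GADD45G was first known as a cytokine-responsive gene.

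All 3 genes lie on the plus strand and overlap no other annotated gene in GENCODE v29 (GRCh38). GADD45A spans chr1:67685061-67688338, GADD45B chr19:2476122-2478259 and GADD45G chr9:89605013-89606555. Each has 4 exons in its longest coding transcript, of 1496 bases for GADD45A, 1373 for GADD45B and 1065 for GADD45G. No 31-base word is shared by the annotated transcripts of any pair of members, which bears on whether reads could be split between them. The notes of the submitters name hg19, so these positions describe the genes and not the intervals counted. RefSeq promoters were matched for 2 of 3 members, GADD45B and GADD45G, and are shown for these. The 250 bases before the start site, from RefSeq (GRCh38.p14, plus strand), are chr19:2475877-2476126 for GADD45B and chr9:89604762-89605011 for GADD45G. Capitals mark matches to the motifs searched.
GADD45B: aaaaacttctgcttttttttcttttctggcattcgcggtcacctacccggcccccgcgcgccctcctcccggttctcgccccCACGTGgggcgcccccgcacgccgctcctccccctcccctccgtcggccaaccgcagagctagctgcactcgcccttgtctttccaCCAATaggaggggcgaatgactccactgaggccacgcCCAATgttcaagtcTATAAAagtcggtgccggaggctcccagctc
GADD45G: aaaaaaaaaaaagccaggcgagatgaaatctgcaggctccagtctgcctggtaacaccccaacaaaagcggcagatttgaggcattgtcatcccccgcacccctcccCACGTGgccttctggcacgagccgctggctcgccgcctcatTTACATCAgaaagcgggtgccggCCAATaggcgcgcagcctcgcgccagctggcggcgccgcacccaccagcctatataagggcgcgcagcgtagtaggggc

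Both strands were searched, and no marked matches overlap. GADD45B holds CCAAT, the box bound by NF-Y, starting 82 and 45 bases before the start site, TATAAA at 31 and the E-box CACGTG at 168. GADD45G holds CCAAT at 79, CACGTG at 143 and, on the minus strand, TGATGNAA, the letters of sites bound by ATF4 with C/EBP partners, at 102. Of the 35116 promoters of the same length, 32.0% hold CCAAT, 6.34% CACGTG, 10.7% TATAAA and 3.14% TGATGNAA. The letters TGACTCA of AP-1 sites (4.20% of promoters), GTAAACA of FOXO sites (2.98%), GGGCGG of GC boxes (42.6%), ATTTGCAT of octamer sites (1.63%) and TGACGTCA of cAMP response elements (1.65%) were in neither window. These matches describe the sequences and do not show binding.

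The mRNA of GADD45A was higher than in untreated cells in all 6 treated groups and that of GADD45B in 4 of them, while GADD45G stayed near 0 in all 21 libraries. In H2O2 at 4 h, 2 of 3 members rose, among all genes of which 26.2% rose and 19.7% fell. In H2O2 at 8 h all 3 rose, GADD45G by 0.04 only, where 18.8% of genes rose and 18.6% fell. In H2O2 at 24 h GADD45A rose and GADD45B fell, where 20.2% of genes rose and 19.9% fell. In NCS at 4 h 2 members rose (7.47% of genes rose, 9.72% fell), at 8 h the same 2 rose (10.5% and 13.3%), and at 24 h GADD45A alone rose (19.6% and 18.4%). With so many genes called, a call by itself says little about a gene. A log2 difference over 1 together with the call was reached by GADD45A and GADD45B in H2O2 at 4 h, as by 0.696% of genes, and by GADD45A in H2O2 at 8 h, as by 0.518%. These libraries are bulk samples, so fewer cells of a kind and less RNA per cell cannot be told apart.

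The balance of rises and falls over all genes depended on how libraries were scaled. Rises made up 57.1% of the calls in H2O2 at 4 h, but 46.1% with library medians aligned and 46.7% after quantile normalization. They made up 50.4% in H2O2 at 24 h, but 35.2% with medians aligned and 55.5% after quantile normalization. In NCS at 8 h they made up 44.1%, but 22.7% with medians aligned and 53% after quantile normalization. Between the treatments, higher genes in H2O2 made up 59.3% of calls at 4 h but 45.9% after quantile normalization. At 8 h they made up 54.7%, but 72.7% with medians aligned and 48% after quantile normalization. At 24 h the share was 50.3%, but 23.5% with medians aligned. The scalings moved the median gene by less than 0.1, and no call of GADD45A or GADD45B changed direction under either of them.

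**Figure D1:**
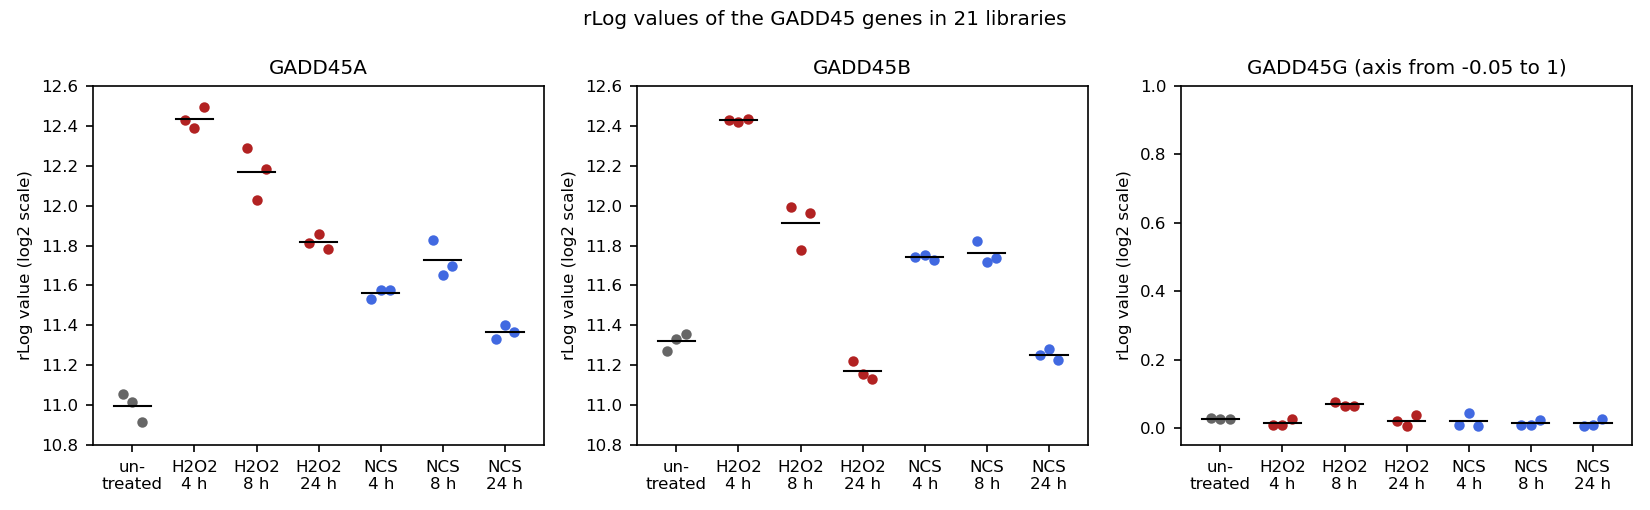
rLog values (log2 scale, vertical axis) of GADD45A, GADD45B and GADD45G in untreated cells and in cells 4, 8 and 24 h after H2O2 or NCS; each point is 1 library and each line the mean of 3. GADD45A and GADD45B share an axis range and are highest in H2O2 at 4 h, and GADD45G, on its own axis, does not exceed 0.077.

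GADD45A, the damage-induced member, was lowest in untreated cells and highest in H2O2 at 4 h. Its rLog values were 11.06, 11.02 and 10.91 in the 3 untreated libraries. After H2O2 the 4 h libraries had 12.43, 12.39 and 12.49, the 8 h libraries 12.29, 12.03 and 12.18, and the 24 h libraries 11.81, 11.86 and 11.78. After NCS the 4 h libraries had 11.53, 11.58 and 11.58, the 8 h libraries 11.83, 11.65 and 11.70, and the 24 h libraries 11.33, 11.40 and 11.37. Every treated library lay above every untreated one. From highest to lowest, the groups were H2O2 at 4 h (mean 12.44 ± 0.05, SD, n = 3), H2O2 at 8 h (12.17 ± 0.13), H2O2 at 24 h (11.82 ± 0.04), NCS at 8 h (11.73 ± 0.09), NCS at 4 h (11.56 ± 0.03), NCS at 24 h (11.37 ± 0.04) and untreated (10.995 ± 0.07). Of the neighbours in this order, only H2O2 at 24 h and NCS at 8 h had overlapping values.

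The rise of GADD45A in H2O2 was greatest at the first time measured. It was 1.44 at 4 h (95% confidence interval 1.33 to 1.56, adjusted p = 5.7e-13 from limma), a ratio of 2.72, and ranked 49 from the highest of 19694 genes. At 8 h it was 1.17 (adjusted p = 3.92e-11, rank 33), or 1.24 without the second library, and at 24 h still 0.82 (adjusted p = 4.52e-10, rank 127). In NCS the rise was 0.57 at 4 h (adjusted p = 5.67e-07, rank 96). It was 0.73 at 8 h (adjusted p = 1.18e-08, rank 57) and down to 0.37 at 24 h (adjusted p = 1.88e-05, rank 645). For each of the 6 comparisons the two-sided exact permutation test gave p = 0.1, the smallest that 3 libraries against 3 allow. Groups without overlap were common, at 49.5%, 42.0% and 59.7% of all genes in H2O2 at 4, 8 and 24 h and 30.0%, 33.8% and 44.5% in NCS.

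Over time, GADD45A fell step by step in H2O2, by 0.27 from 4 to 8 h (adjusted p = 0.000536 from limma) and by 0.35 from 8 to 24 h (adjusted p = 4.06e-05). Without the second H2O2 library at 8 h these differences were -0.20 (adjusted p = 0.00322) and -0.42 (adjusted p = 2.07e-06). In NCS its value was 0.16 above the 4 h value at 8 h, which did not pass in limma (adjusted p = 0.0582, unadjusted p = 0.00843, 95% confidence interval 0.05 to 0.28). The 3 libraries at each time did not overlap, as was the case for 28.3% of all genes in this comparison. The difference passed when the second H2O2 library at 8 h was left out of the fit (adjusted p = 0.0173 from limma). GADD45A then fell by 0.36 from 8 to 24 h in NCS (adjusted p = 4.83e-05). Between successive times, all 3 members changed in H2O2 from 4 to 8 h (45.7% of all genes changed in either direction) and from 8 to 24 h (42.6%). In NCS, limma called 0 of 3 from 4 to 8 h (13.7% of genes), with GADD45A the only one at an unadjusted p under 0.05, and 2 of 3 from 8 to 24 h (29.9%).

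GADD45B, the TGF-beta and NF-kB responsive member, rose early and was back near or below its untreated level by 24 h. Its rLog values were 11.27, 11.33 and 11.36 in untreated cells. After H2O2 the 4 h libraries had 12.43, 12.42 and 12.44, the 8 h libraries 11.99, 11.78 and 11.96, and the 24 h libraries 11.22, 11.16 and 11.13. After NCS the 4 h libraries had 11.74, 11.75 and 11.73, the 8 h libraries 11.83, 11.72 and 11.74, and the 24 h libraries 11.25, 11.28 and 11.23. The libraries at 4 and 8 h were all above the untreated ones, those of H2O2 at 24 h were all below them, and those of NCS at 24 h overlapped with them. The order was H2O2 at 4 h (12.43 ± 0.01, SD, n = 3), H2O2 at 8 h (11.91 ± 0.12), NCS at 8 h (11.76 ± 0.06), NCS at 4 h (11.74 ± 0.01), untreated (11.32 ± 0.05), NCS at 24 h (11.25 ± 0.03) and H2O2 at 24 h (11.17 ± 0.05). Neighbours overlapped between H2O2 and NCS at 8 h, between NCS at 8 and 4 h, and between untreated and NCS at 24 h.

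GADD45B rose in H2O2 by 1.11 at 4 h (95% confidence interval 1.02 to 1.20, adjusted p = 5.7e-13 from limma), a ratio of 2.16 and rank 96 of 19694, and by 0.59 at 8 h (adjusted p = 4.7e-09, rank 257), or 0.66 without the second library. At 24 h it was lower than in untreated cells, a fall by 0.15 (adjusted p = 0.00736). In NCS the rises at 4 and 8 h were alike in size, 0.42 (adjusted p = 8.48e-07, rank 170) and 0.44 (adjusted p = 2.52e-07, rank 155), and the difference between these times was 0.02 (95% confidence interval -0.07 to 0.11, adjusted p = 0.932). At 24 h after NCS the difference from untreated cells was -0.07 (95% confidence interval -0.16 to 0.02, adjusted p = 0.251). Within H2O2 it fell by 0.52 from 4 to 8 h (adjusted p = 1.81e-08) and by 0.74 from 8 to 24 h (adjusted p = 1.19e-10), and within NCS by 0.51 from 8 to 24 h (adjusted p = 2.53e-08). Without the second H2O2 library at 8 h, both falls within H2O2 remained, with differences of -0.45 (adjusted p = 4.83e-09) and -0.81 (adjusted p = 3.26e-12). The two-sided exact permutation test gave p = 0.2 for NCS at 24 h against untreated cells, 0.9 for NCS at 8 h against 4 h and 0.1 for the other comparisons of this paragraph.

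GADD45G, the cytokine-responsive member, had rLog values between 0.007 and 0.077 in all 21 libraries. They were 0.029, 0.027 and 0.026 in untreated cells. In H2O2 at 8 h they were 0.077, 0.065 and 0.064, above those of every other library. The remaining treated groups lay between 0.007 and 0.045 and overlapped with one another. The difference of 0.04 between H2O2 at 8 h and untreated cells passed the test (adjusted p = 0.00235 from limma), and it was a ratio of 1.03 after shrinkage. Without counts, how many reads stood behind the value of each library is unknown. In the other 5 comparisons with untreated cells its differences lay within 0.02 of 0 and did not pass.

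**Figure D2:**
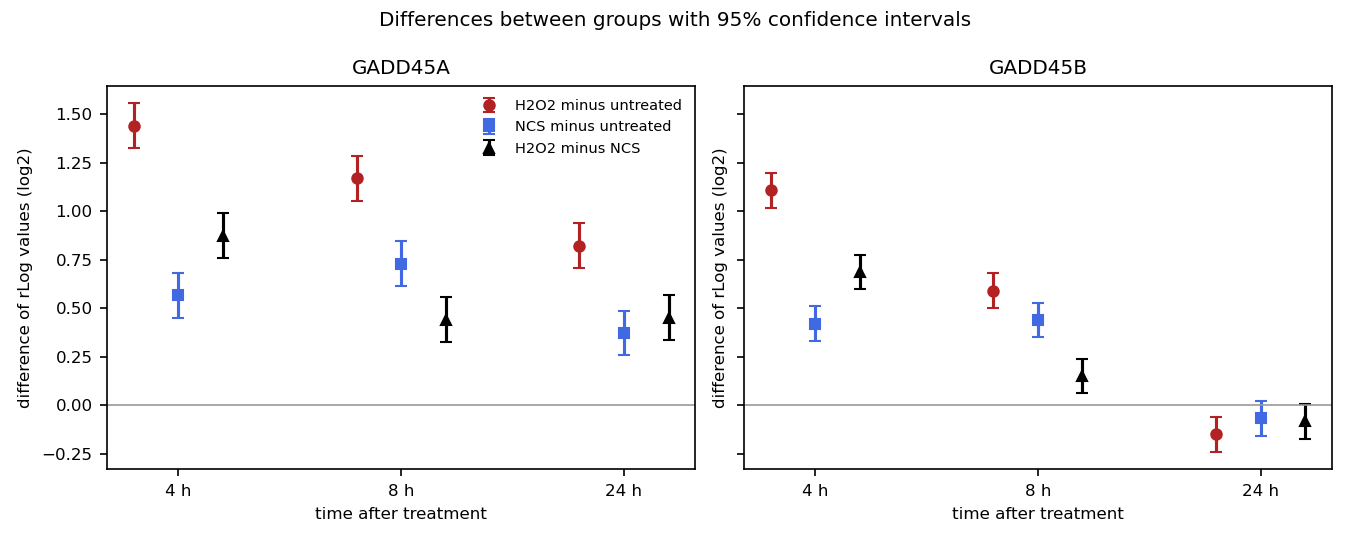
Differences of rLog values (log2, vertical axis) of GADD45A and GADD45B at 4, 8 and 24 h (horizontal axis) for H2O2 against untreated, NCS against untreated and H2O2 against NCS; points are limma estimates from 3 libraries a group and bars 95% confidence intervals. For GADD45A all 9 differences are above 0, and for GADD45B the difference between H2O2 and untreated goes from 1.11 at 4 h to -0.15 at 24 h.

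At each matched time, GADD45A was higher in the H2O2 libraries than in the NCS libraries. The difference was 0.87 at 4 h (SE 0.06, adjusted p = 4.46e-10 from limma), then 0.44 at 8 h (adjusted p = 5.16e-06) and, similarly, 0.45 at 24 h (adjusted p = 6.85e-06), and the libraries did not overlap at any of the times. For GADD45B it was 0.69 at 4 h (adjusted p = 3.43e-10). It had shrunk to 0.15 at 8 h (adjusted p = 0.00932), where the libraries overlapped and the two-sided exact permutation test gave p = 0.2. The 8 h call was lost without the first H2O2 library at 8 h (0.11, adjusted p = 0.0692 in limma), without the third (0.13, adjusted p = 0.0520) and in a fit of only the groups compared (adjusted p = 0.133). Without the second it was 0.22 (adjusted p = 3.5e-05), and the difference of GADD45A was 0.51. At 24 h GADD45B differed by -0.08 (95% confidence interval -0.17 to 0.01, adjusted p = 0.195), although the libraries did not overlap. This difference passed as lower in H2O2 with library medians aligned (-0.11, adjusted p = 0.031 in limma) and without the second H2O2 library at 8 h (-0.08, adjusted p = 0.0433). GADD45G differed by 0.06 at 8 h (adjusted p = 0.000217). GADD45A and GADD45B were thus higher in H2O2 at 4 h, all 3 members at 8 h and GADD45A alone at 24 h. None was called lower with the values as deposited, but GADD45G was at 4 h after quantile normalization (-0.044, adjusted p = 0.000776 from limma), as was GADD45B at 24 h in the settings just given. Among all genes, 26.3%, 18.7% and 11% were higher in H2O2 at these times, and 18%, 15.4% and 10.9% were lower. Groups did not overlap for 50.1%, 40.8% and 36.5% of genes.

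The gap between the treatments itself changed with time. For GADD45A, the H2O2 minus NCS difference shrank by 0.43 from 4 to 8 h (a change of -0.43, SE 0.08, adjusted p = 0.000305 from limma) and was not seen to change further from 8 to 24 h (0.01, 95% confidence interval -0.15 to 0.17, adjusted p = 0.981). For GADD45B it changed by -0.54 from 4 to 8 h (SE 0.06, adjusted p = 2.01e-06) and by -0.23 from 8 to 24 h (adjusted p = 0.00874). Without the second H2O2 library at 8 h, the change from 4 to 8 h was -0.36 for GADD45A (adjusted p = 0.00039) and -0.47 for GADD45B (adjusted p = 2.37e-07), and that from 8 to 24 h was -0.06 (adjusted p = 0.598) and -0.30 (adjusted p = 5.6e-05). Over the whole span from 4 to 24 h the changes were -0.42 for GADD45A (adjusted p = 0.000281) and -0.77 for GADD45B (adjusted p = 1.76e-08). The difference of GADD45G changed by 0.06 from 4 to 8 h and by -0.05 from 8 to 24 h. All 3 members passed from 4 to 8 h (32.7% of all genes), GADD45B and GADD45G from 8 to 24 h (21.4%), and GADD45A and GADD45B from 4 to 24 h (39.4%).

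GADD45A and GADD45B were compared within each library by subtracting the rLog value of GADD45B from that of GADD45A and setting the untreated mean to 0. Untreated libraries then lay between -0.12 and 0.11. The H2O2 libraries of 4 h spanned 0.29 to 0.38, those of 8 h 0.55 to 0.62 and those of 24 h 0.92 to 1.03. The NCS libraries of 4 h spanned 0.11 to 0.17, those of 8 h 0.26 to 0.33 and those of 24 h 0.40 to 0.47. Within each treatment the 3 times did not overlap, and at each time H2O2 lay above NCS. The mean shift toward GADD45A was 0.33, 0.58 and 0.97 in H2O2 and 0.15, 0.29 and 0.44 in NCS at 4, 8 and 24 h (two-sided exact permutation test against untreated, p = 0.1 for each, the smallest possible). Without the second H2O2 library the 8 h shift was 0.585. The first of the NCS shifts was small beside the spread of the untreated libraries and was 0.09 without the third untreated library.

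**Figure D3:**
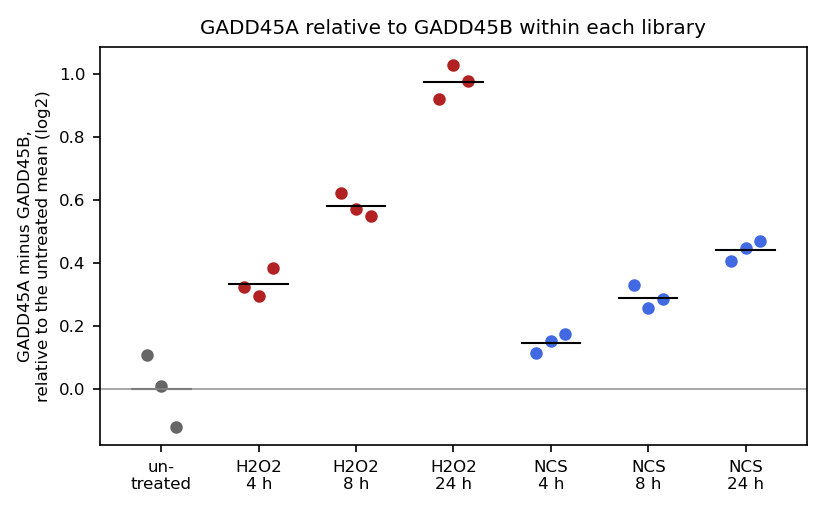
GADD45A minus GADD45B within each library (log2, vertical axis), relative to the untreated mean, in the 7 groups; points are libraries and lines means of 3. The value is higher at each later time, up to a mean of 0.97 in H2O2 and 0.44 in NCS at 24 h.

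Over the 21 libraries the values of GADD45A and GADD45B had a Pearson r of 0.767, which is a description, since the libraries fall into 7 groups that fix most of the spread. Within groups the pooled SD was 0.07 for GADD45A and 0.06 for GADD45B, against a median of 0.04 for the 2450 genes with a mean within 1 of that of GADD45A. Without the H2O2 group at 8 h, the pooled SD was 0.06 for GADD45A and 0.04 for GADD45B, and the median of the same 2450 genes was 0.03.

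The 8 genes most like each member were found by Pearson r over the 21 libraries among 11680 genes with a mean value of at least 5. For GADD45A they were IER3, an immediate early gene (r = 0.965), C12orf44 (0.961), the pseudokinase gene TRIB1 (0.958), PPP1R15A, also called GADD34 (0.955), the stress transcription factor gene ATF3 (0.942), the repressor gene PRDM1 (0.935), KIAA1324 (0.934) and the small GTPase gene RRAD (0.933). In H2O2 at 4 h their differences from untreated cells lay between 0.50 for C12orf44 and 3.45 for ATF3, and in NCS at 4 h between 0.11 for PPP1R15A and 1.58 for ATF3. At 24 h all 8 still had values above untreated cells in both treatments, from 0.21 to 1.10 in H2O2 and from 0.06 to 0.76 in NCS.

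For GADD45B the genes most like it were HBEGF, an EGF receptor ligand (r = 0.960), the glycolytic regulator PFKFB3 (0.960), the MAP kinase phosphatase gene DUSP1 (0.958), the histamine receptor gene HRH1 (0.958), a further MAP kinase phosphatase gene, DUSP7 (0.954), SHFM1 (0.950), the Toll-like receptor adaptor gene TICAM1 (0.949) and the nuclear receptor gene NR4A1 (0.949). In H2O2 at 4 h they lay 0.15 (SHFM1) to 1.94 (NR4A1) above untreated cells. At 24 h after H2O2 their differences were -0.26 (HBEGF) to 0.06 (NR4A1), and at 24 h after NCS -0.20 (DUSP7) to 0.15 (HBEGF). The genes were chosen for likeness over these same libraries, so the course they share with the member is part of the choice. No gene was on both lists. When the 7 group means were used in place of the libraries, 3 of the 8 genes for GADD45A and 1 of the 8 for GADD45B were chosen again, so the exact names depend on the measure.

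**Figure D4:**
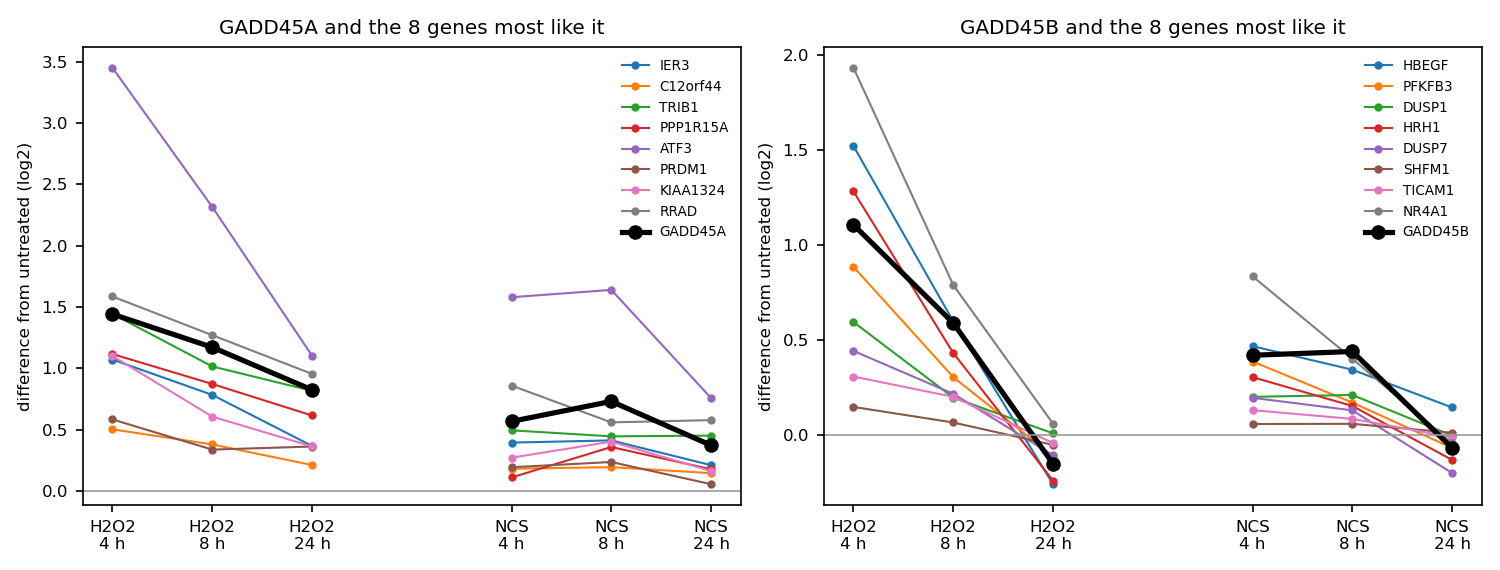
Differences from untreated cells (log2, vertical axis) in H2O2 and NCS at 4, 8 and 24 h for GADD45A and GADD45B (black) and for the 8 genes with the highest Pearson r to each; points are limma estimates. The genes like GADD45A stay above 0 at 24 h, and those like GADD45B lie between -0.26 and 0.15 there.

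Among 15 transcriptional regulators of GADD45 genes, 3 rose and 6 fell in H2O2 at 4 h, 7 rose and 5 fell at 8 h, and 3 rose and 6 fell at 24 h. In NCS, 2 rose and 4 fell at 4 h, 1 rose and 6 fell at 8 h, and 2 rose and 6 fell at 24 h. Quantile normalization gave 4 rises and 5 falls in H2O2 at 24 h and 2 and 5 in NCS at 8 h, and aligned medians gave 1 and 5 in NCS at 4 h and 0 and 7 at 8 h. The list's median difference lay between -0.07 and 0.06 in these comparisons, where that of all genes was 0.00. ATF4, the transcription factor of the integrated stress response, differed most between the treatments. It rose by 0.92, 0.97 and 0.55 in H2O2 at 4, 8 and 24 h, and its differences in NCS were -0.18, -0.04 and 0.21. At 4 h its value in H2O2 exceeded that in NCS by 1.10 (adjusted p = 5.14e-11 from limma). EGR1, an immediate early transcription factor, fell in all 6 comparisons, by 0.43 in H2O2 and 1.35 in NCS at 4 h. BRCA1, a repair gene whose product can regulate GADD45A, fell by 1.05 in H2O2 and 1.17 in NCS at 24 h. NFYA, a subunit of the factor that binds CCAAT, fell by 0.53 in H2O2 at 4 h (adjusted p = 3.5e-09 from limma) but rose by 0.17 in H2O2 at 8 h (adjusted p = 0.00177, but 0.0736 with only the groups compared), and in NCS it rose by 0.17 at 4 h (adjusted p = 0.00368). In H2O2 at 24 h the difference of NFYA was -0.12 (adjusted p = 0.0222 from limma, but 0.0688 with only the groups compared). Its mean in NCS at 24 h was 10.04, against 10.29 in untreated cells. SMAD3, a TGF-beta signal transducer, fell in all 6 comparisons, by 0.19 to 0.46. FOXO3 rose by 0.26 in H2O2 at 8 h. Its difference of 0.08 in NCS at that time (adjusted p = 0.0405 from limma) did not pass with library medians aligned (adjusted p = 0.169), with only the groups compared (adjusted p = 0.0531) or without any one of the 3 NCS libraries, the first untreated library or the third (adjusted p = 0.0593 to 0.159).

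A further list held 3 RNA-binding proteins known to act on GADD45A mRNA. HNRNPD, which destabilizes it, fell by 0.70 in H2O2 and 0.66 in NCS at 24 h (adjusted p = 4.83e-14 and 9.15e-14 from limma). ELAVL1, a stabilizing protein of many mRNAs, fell by 0.44 and 0.50 at that time. TIAL1, a translational repressor, fell by 0.14 in H2O2, and its difference of -0.08 in NCS (adjusted p = 0.0186 from limma) did not pass after quantile normalization (adjusted p = 0.115), with medians aligned (adjusted p = 0.0668) or without the second NCS or first untreated library (adjusted p = 0.086 and 0.088). At 4 h in H2O2, when GADD45A was highest, the differences of these genes were 0.06, -0.03 and 0.003. That of HNRNPD passed (adjusted p = 0.0446 from limma), but not with medians aligned (0.16) or after quantile normalization (0.135). In NCS at 4 h the differences were -0.085, -0.098 and -0.098, and all 3 passed (adjusted p = 0.0124 to 0.0197 from limma). After quantile normalization 1 of these 3 passed, and 0 did without the first untreated library.

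Of 8 direct partners of GADD45 proteins, 2 rose and 4 fell in H2O2 at 4 h, 3 rose and 3 fell at 8 h, and 1 rose and 5 fell at 24 h. In NCS, 2 rose and 3 fell at 4 h, 2 rose and 4 fell at 8 h, and 1 rose and 6 fell at 24 h. The median difference of the list went down to -0.30 in H2O2 and -0.33 in NCS at 24 h. Some genes are on more than 1 list. CDK1, CCNB1 and AURKA are on this list and on that of mitotic entry below, so their falls are counted in both. CDKN1A, the p21 inhibitor of cyclin-dependent kinases, rose in all 6, by 1.21 in H2O2 and 1.58 in NCS at 4 h. It was lower in H2O2 than in NCS at 4 h (-0.37, SE 0.07, adjusted p = 0.000438 from limma), opposite in sign to GADD45A at that time only. At 8 h the difference was 0.15 (adjusted p = 0.135 from limma), and 0.30 without the second H2O2 library (adjusted p = 1.69e-08). At 24 h the means of CDKN1A were 15.69 in H2O2 and 15.60 in NCS. PCNA rose at 4 h (0.34 in H2O2, 0.55 in NCS) and at 8 h, and fell at 24 h (by 0.38 and 0.40). MAP3K4, the kinase that GADD45 proteins activate, fell by 0.23 in H2O2 at 4 h, rose by 0.16 at 8 h and fell by 0.23 at 24 h. Against NCS it was lower in H2O2 at 4 h (-0.21) and higher at 8 h (0.35). GADD45GIP1, which encodes a nuclear and mitochondrial partner, had differences between -0.02 and 0.13, none of which passed.

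The p38 and JNK kinases and their activators had mixed and mostly small differences. Of 13 genes, 3 rose and 6 fell in H2O2 at 4 h, 4 rose and 3 fell at 8 h, and 2 rose and 4 fell at 24 h. In NCS, 1 rose and 1 fell at 4 h, 1 rose and 4 fell at 8 h, and 1 rose and 5 fell at 24 h. Rises and falls in NCS were 1 and 2 at 4 h with medians aligned, and 2 and 3 both at 8 and at 24 h after quantile normalization. MAP2K6, MAPK10 and MAPK13 had low values, with untreated means of 1.92, 2.90 and 3.815. MAPK13 was among the rises in H2O2 at 4 h (0.14, adjusted p = 0.0209 from limma). Its difference was -0.014 after quantile normalization (adjusted p = 0.852). The list's median difference was between -0.07 and 0.01 in the 6 comparisons. MAP3K5, the oxidant-sensing kinase ASK1, fell in all 6, by 0.30 to 0.58. MAPK14, which encodes p38 alpha, fell by 0.33 in H2O2 at 4 h. At 8 h its difference was 0.12 (adjusted p = 0.0167 from limma), which did not pass with only the groups compared (adjusted p = 0.136) or without the first or the third H2O2 or the second untreated library (adjusted p = 0.0742 to 0.115). MAPK8, which encodes JNK1, differed in H2O2 by 0.19 at 4 h (adjusted p = 0.00764 from limma, but 0.0512 without the second H2O2 library) and by 0.16 at 8 h (adjusted p = 0.0304). The 8 h difference did not pass without the first or second H2O2 library or any one of the untreated libraries (adjusted p = 0.0529 to 0.0876). MAP2K3, a kinase that activates p38, rose by 0.28 at 4 h and fell by 0.27 at 24 h in H2O2.

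A list of 10 genes that control entry into mitosis held both drivers and the inhibitors WEE1, PKMYT1 and SFN. Of these genes, 0 rose and 7 fell in H2O2 at 4 h, 1 rose and 9 fell at 8 h, and 0 rose and 9 fell at 24 h. In NCS, 1 rose and 8 fell at 4 h, 1 rose and 9 fell at 8 h, and 0 rose and 9 fell at 24 h. The median difference was -0.34, -0.89 and -1.58 in H2O2 and -0.79, -0.97 and -1.75 in NCS. PLK1, a mitotic kinase, fell by 1.25 in NCS at 4 h, differed by -0.31 in H2O2 (adjusted p = 0.0214 from limma, but 0.0561 to 0.0709 without the third H2O2 or the second or the third untreated library), and was 0.94 higher in H2O2 than in NCS (adjusted p = 7.83e-07 from limma). CCNB1, cyclin B1, fell by 0.39 in H2O2 and 0.93 in NCS at 4 h and by 1.75 and 1.92 at 24 h. AURKA, an Aurora kinase that binds GADD45A, fell by 0.56 and 1.63 at 4 h. CDK1 differed by -0.10 in H2O2 at 4 h, which did not pass, and fell by 24 h in both treatments, with differences of -1.59 in H2O2 and -1.79 in NCS. The inhibitory kinase gene WEE1 fell in all 6 comparisons, by 0.42 to 1.10. PKMYT1, a related kinase gene, was the gene that rose in NCS at 4 h (0.29, adjusted p = 0.00107 from limma), and it fell by 1.17 in H2O2 at 24 h. SFN, which encodes 14-3-3 sigma, was the gene counted as higher at 8 h in both treatments (0.14 in each, adjusted p = 0.0175 in H2O2 and 0.0284 in NCS from limma). Its values were low, with means of 2.59 in untreated cells and 2.73 in H2O2 and in NCS at 8 h. In H2O2 it did not pass after quantile normalization (adjusted p = 0.101), with only the groups compared (adjusted p = 0.0537) or without the first or the third H2O2 or the first or second untreated library (adjusted p = 0.0513 to 0.0766). In NCS it did not pass without the first or the third NCS or the first or second untreated library (adjusted p = 0.0786 to 0.102).

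The 11 partners in repair and demethylation were mixed. In H2O2, 2 rose and 5 fell at 4 h, 4 rose and 3 fell at 8 h, and 2 rose and 6 fell at 24 h. In NCS, 3 rose and 1 fell at 4 h, 2 rose and 4 fell at 8 h, and 2 rose and 7 fell at 24 h. After quantile normalization the rises and falls at 24 h were 4 and 6 in H2O2 and 3 and 6 in NCS. In H2O2 at 8 h they were 5 and 3 after quantile normalization and 3 and 3 with medians aligned. TDG, counted as higher in H2O2 at 8 h (0.08, adjusted p = 0.049 from limma), did not pass in 18 of the 21 fits that left out a library (adjusted p = 0.0524 to 0.326). TET3, a 5-methylcytosine dioxygenase, rose by 0.61, 0.77 and 0.41 in H2O2 and was higher there than in NCS at all 3 times (by 0.42, 0.60 and 0.38). TET1, of the same enzyme family, fell by 0.73 in H2O2 at 4 h.

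Of 7 other genes named for growth arrest or DNA damage or tied to that response, 5 rose and 1 fell in H2O2 at 4 h, and 6 rose and 1 fell at 8 and at 24 h. In NCS, 1 rose and 2 fell at 4 h (5 calls in place of 3 without the second H2O2 library at 8 h), and 6 rose and 1 fell at 8 and at 24 h. The balance in NCS at 4 h turned with the scaling, to 3 rises and 1 fall after quantile normalization and 2 of each with medians aligned. Their median difference was 1.12, 1.20 and 1.10 in H2O2 and 0.10, 0.36 and 0.75 in NCS. The list was drawn up with earlier results on ATF3, DDIT3 and PPP1R15A known, so its direction is no independent evidence. ATF3 rose by 3.45, 2.32 and 1.10 in H2O2 and by 1.58, 1.64 and 0.76 in NCS. PPP1R15A, which restores translation after stress, rose by 1.12 in H2O2 at 4 h, and its difference in NCS was 0.11 (adjusted p = 0.0793 from limma). The value in H2O2 exceeded that in NCS by 1.01 (adjusted p = 2.19e-12). DDIT3, which encodes the factor CHOP, rose by 1.45 in H2O2 at 4 h, had a difference of 0.19 in NCS (adjusted p = 0.0622 from limma) and was 1.26 higher in H2O2 than in NCS (adjusted p = 6.66e-11). DDIT4, an inhibitor of mTOR signalling, rose by 1.21 in H2O2 at 4 h, where it exceeded NCS by 1.45 (adjusted p = 9.1e-11 from limma). Its difference of -0.24 in NCS at 4 h (adjusted p = 0.0492) did not pass after quantile normalization (adjusted p = 0.0855), without a mean-variance trend (adjusted p = 0.0747) or in 18 of the 21 fits that left out a library (adjusted p = 0.0557 to 0.199). TRIB3, a pseudokinase induced downstream of ATF4, rose by 1.06 in H2O2 at 4 h and by 2.08 at 24 h, against 0.02 (not past the test) and 1.10 in NCS. GAS1, a growth arrest gene of the cell surface, fell in all 6 comparisons, by 0.45 to 0.61.

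**Figure D5:**
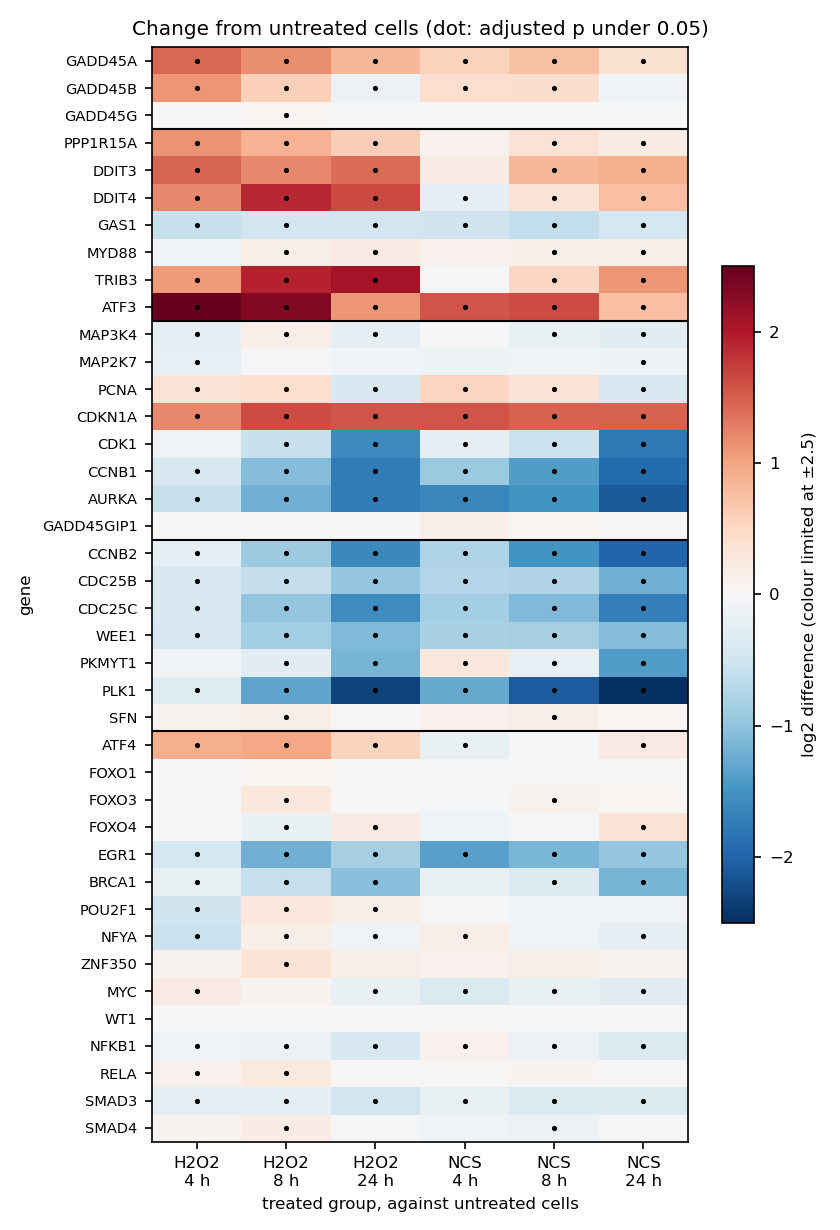
Differences from untreated cells (log2, colour) in the 6 treated groups (columns) for the family members, other growth arrest and damage genes, direct partners, mitotic entry genes and transcriptional regulators (rows, in blocks); dots mark an adjusted p under 0.05 in limma. GADD45A and CDKN1A have dots in all 6 columns, the mitotic entry genes other than SFN are deepest blue at 24 h in both treatments, and ATF4 reaches 0.97 in H2O2 but not more than 0.21 in NCS.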

How the data were processed

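RNA was extracted from hTERT-HPNE cells with a column kit and libraries were made with a stranded mRNA kit. The authors aligned reads with HISAT2, counted them with htseq-count (HTSeq) in Galaxy and deposited log2 values made with DESeq2's rLog transformation over all 21 libraries. The submitters' processing notes name hg19. Whether counting used strand is not given in the sources used here. No counts were used, so depth is unknown.

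Values were used as deposited. All 7 groups entered a single limma model (limma 3.58.1, R 4.3.3, trended prior variance), and p-values were adjusted by Benjamini-Hochberg over the 19694 genes not at 0 throughout. The authors themselves used DESeq2 on counts. Single genes were also tested by two-sided exact permutation (smallest p 0.1). The fit was tested on simulated data. Other calculations used Python 3.11.15, numpy 2.4.6, pandas 2.3.3 and matplotlib 3.10.9. Replicates are biological per the labels, and no libraries held identical values.

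Members, gene lists and tests were chosen with earlier results of these data known. Genes named are the members, the genes of the 7 lists, the cell type markers and the 8 genes most correlated with each member. A gene of the list of transcriptional regulators is not reported here and was left out of its counts. The 8 genes most like GADD45G are not described, because its values lie near 0. RefSeq promoters were matched by symbol for 2 of 3 members, GADD45B and GADD45G. The fit was repeated with quantile normalization, with library medians aligned, without the variance trend, among genes with a mean of at least 5, with only the groups compared, with replicate numbers as a block, and after dropping each library in turn.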

Additional observations from a re-analysis of the deposited data

Results flagged for a closer look

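The gap between the treatments changed over time for both GADD45A and GADD45B, by a test of the change itself (interaction contrasts in limma, adjusted over all genes). For GADD45A it changed by -0.433 from 4 to 8 h and by -0.422 from 4 to 24 h. For GADD45B it changed by -0.537 from 4 to 8 h, by -0.233 from 8 to 24 h and by -0.770 from 4 to 24 h.

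For GADD45G the same tests gave a change of 0.061 from 4 to 8 h and of -0.047 from 8 to 24 h, at values that did not exceed 0.077 in any library.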

How the results depend on the processing

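Of 192 results of GADD45A and GADD45B recomputed under settings other than leaving out a library, 188 stayed on the same side of the threshold, as did 666 of 672 with a library left out, and no called difference changed sign. Among differences that never passed, the change of the treatment gap of GADD45A from 8 to 24 h (0.01) went down to -0.037 with medians aligned and -0.060 with a library left out, and GADD45B between 8 and 4 h in NCS (0.02) down to -0.012 with a library left out. The exceptions to the side were 3 comparisons. GADD45B between H2O2 and NCS at 8 h lost its call with only the groups compared (0.15, adjusted p = 0.133, range over the settings 0.000883 to 0.133), and lay between 0.109 and 0.216 with a library left out (adjusted p = 3.5e-05 to 0.0692). GADD45B between H2O2 and NCS at 24 h passed with medians aligned (-0.109, adjusted p = 0.031, range 0.031 to 0.299) and without the second H2O2 library at 8 h, with a leave-one-out range of -0.108 to -0.064 (adjusted p = 0.0433 to 0.453). GADD45A between 8 and 4 h in NCS passed with medians aligned (0.153, adjusted p = 0.0259) and among genes with a mean of at least 5 (0.163, adjusted p = 0.0112, range 0.0112 to 0.0831). With a library left out it lay between 0.111 and 0.200 (adjusted p = 0.0173 to 0.273), and passed without the first or second H2O2 library at 8 h or the second NCS library at 8 h. The cause was not tested.

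The shift of GADD45A against GADD45B moved without the third untreated library. Its leave-one-out range was 0.273 to 0.388, 0.521 to 0.635 and 0.914 to 1.029 in H2O2 and 0.086 to 0.201, 0.229 to 0.344 and 0.379 to 0.494 in NCS at 4, 8 and 24 h. Among genes with a mean of at least 5, 2700 rose in H2O2 at 4 h (5165 of all genes) and 2746 lay above NCS in H2O2 at 4 h (5184), since fewer genes were tested. With medians aligned, 6578 genes fell in H2O2 at 24 h (3911 as deposited) and 5886 in NCS at 8 h (2629), and in H2O2 against NCS 7204 were higher at 8 h (3679) and 5800 lower at 24 h (2144). Quantile normalization gave GADD45G a difference of -0.048 in H2O2 at 4 h (adjusted p = 0.000329) and of -0.044 against NCS (adjusted p = 0.000776), and GADD45G had no value among genes with a mean of at least 5. Its change from 8 to 24 h did not pass without the first H2O2 library at 8 h, the second at 24 h or the third NCS library at 24 h (adjusted p = 0.0565 to 0.0618).

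Among the lists, against untreated cells, the growth arrest and damage genes had 5 calls in NCS at 4 h, in place of 3, at a mean of at least 5, with only the groups compared and without the second H2O2 library at 8 h, the regulators 7 in place of 12 in H2O2 at 8 h with only the groups compared, and the repair partners 2 in place of 4 in NCS at 4 h without the second untreated or the third NCS library. The RNA-binding proteins had 0 in place of 1 in H2O2 at 4 h under either scaling and in 14 of the 21 fits without a library. In NCS at 4 h they had 1 in place of 3 after quantile normalization and without the first NCS library, and 0 without the first untreated library. Called list genes that changed sign were MAPK13 (H2O2 at 4 h) and MAPK10 (H2O2 against NCS at 4 h), after quantile normalization.

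In the fit with a replicate block, 138 results were compared with the main fit, counts of called genes among them. Each member result kept its side of the threshold, and each count stayed within 1.5 times that of the main fit. GADD45A in H2O2 at 4 h was at 1.44 (adjusted p = 8.36e-12 from limma) and GADD45B at 1.11 (adjusted p = 7.85e-12). Single list genes were not among these results. NFKB1 and TET3, called higher in NCS at 4 h (adjusted p = 0.0472 and 0.0459 from limma), did not pass with the block (adjusted p = 0.0538 and 0.0582). The replicate numbers were not taken to pair libraries, since not all same-numbered pairs had correlated deviations from the group means (-0.149 to 0.213, mean 0.0274, against -0.0137 for different numbers). The mean was highest between H2O2 and NCS at 8 h (0.14), where all same-numbered pairs were positive (0.0381 to 0.192). Such pairs were also all positive between H2O2 and NCS at 24 h (0.0688 to 0.113) and between NCS at 24 h and untreated cells (0.0531 to 0.131). In the other comparisons with untreated cells or at matched times, some pairs were negative. Of the libraries, 12 of 21, not all, correlated best with their own number. These values are a hint from the data and not from the design. Depth is unknown for every library.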
